A study of Caenorhabditis elegans with 5 samples.

Results

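Autophagy carries parts of the cell to the lysosome for breakdown, and 8 genes of that route were read here in whole nematodes exposed to bisphenol TMC (BPTMC): the transcription factor gene hlh-30 and the autophagy genes unc-51, bec-1, atg-18, atg-7, lgg-1, lgg-2 and sqst-1. They were chosen by name, and each had a row among the 45251 genes of the 5 count tables. The animals were wild-type Caenorhabditis elegans of the N2 strain, with no transgene or mutation given, labelled as L4 to adult. Worms kept at 20 °C on agar with E. coli OP50 were placed for 24 h on plates with 1 mM BPTMC (3 libraries) or with dimethyl sulfoxide (DMSO, 2 libraries), taken here as the solvent control; the protocol names the same 1 mM for both. Libraries were made from 500 ng of total RNA with the Lexogen QuantSeq kit, which reads the 3′ ends of transcripts, and nothing in the labels ties replicates to separate cultures, so p-values measure the spread between these libraries, which may be technical.

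In autophagy a membrane grows around cargo, closes into an autophagosome and fuses with a lysosome. The kinase UNC-51 starts the process, a lipid kinase complex with BEC-1 marks the growing membrane and ATG-18 binds that mark, and ATG-7 activates the ubiquitin-like proteins LGG-1 and LGG-2 so that they can be attached to lipid. SQST-1 ties ubiquitinated cargo to LGG-1, and HLH-30, the worm counterpart of mammalian TFEB, turns on autophagy and lysosome genes when it enters the nucleus. Since HLH-30 is controlled largely by its place in the cell and autophagy proteins by lipid attachment and turnover, an mRNA level describes the transcript and not the rate of autophagy.

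Total counts ran from 16531114 to 24362712 per library, and the members had 134 to 11799 reads per library. The libraries differed within groups as well as between them: the ends of the first principal component (54.9% of the variance) were BPTMC replicate 1, at 108, and DMSO replicate 2, at -87.9. The share of ribosomal RNA in the counts was 11.2% and 17.7% in DMSO and 13.6% to 24.7% in BPTMC. Markers of all 7 tissues looked for were read in every library, apart from the cuticle collagen genes rol-6 and bli-1, which each had 0 reads in at least 1 library. Summed over 6 genes of germline and oocytes, markers stood at 829 and 2010 CPM (normalised counts scaled to a fixed library total) in DMSO replicates 1 and 2 and at 287, 1320 and 1500 CPM in BPTMC replicates 1, 2 and 3. Summed over 28 major sperm protein genes, they stood at 96.1 and 41.5 CPM in DMSO and at 437, 54.4 and 285 CPM in BPTMC. Over 4 body wall muscle genes they stood at 326 and 274 CPM against 937, 350 and 395 CPM. Over 3 pharynx genes they stood at 3.72 and 26.0 CPM against 6.36, 17.7 and 47.6 CPM. In whole worms, fewer cells of a type and less RNA per cell cannot be told apart.

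No member passed the test of BPTMC against DMSO: 0 of 8 were called by edgeR's quasi-likelihood test at a Benjamini-Hochberg adjusted p under 0.05, where 0.105% of the 14238 genes tested were called (15 higher and 0 lower). All 8 passed the filter on low counts. DESeq2, which called 1.67% of tested genes higher and 0.0211% lower, and limma-voom, which called 0.00702% higher, also called 0 of the 8. At an unadjusted p under 0.05, 1 member was higher (sqst-1) and 0 were lower by each of the 3 tools, where edgeR put 7.0% of all tested genes higher and 0.400% lower. In 5 members the fold change was positive and in 3 negative, with a median log2 fold change of 0.40 beside -0.09 over all genes tested. With 1 library left out the members' median ran from 0.21 (without BPTMC replicate 1, beside 0.02 over all genes) to 0.61 (without BPTMC replicate 2, beside -0.07). In 3 members (hlh-30, unc-51 and sqst-1) each BPTMC library lay above both DMSO libraries, a separation found in 13.4% of all tested genes; in none did each BPTMC library lie below both, as in 9.96% of tested genes. The other 5 overlapped between groups.

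**Figure D1:**
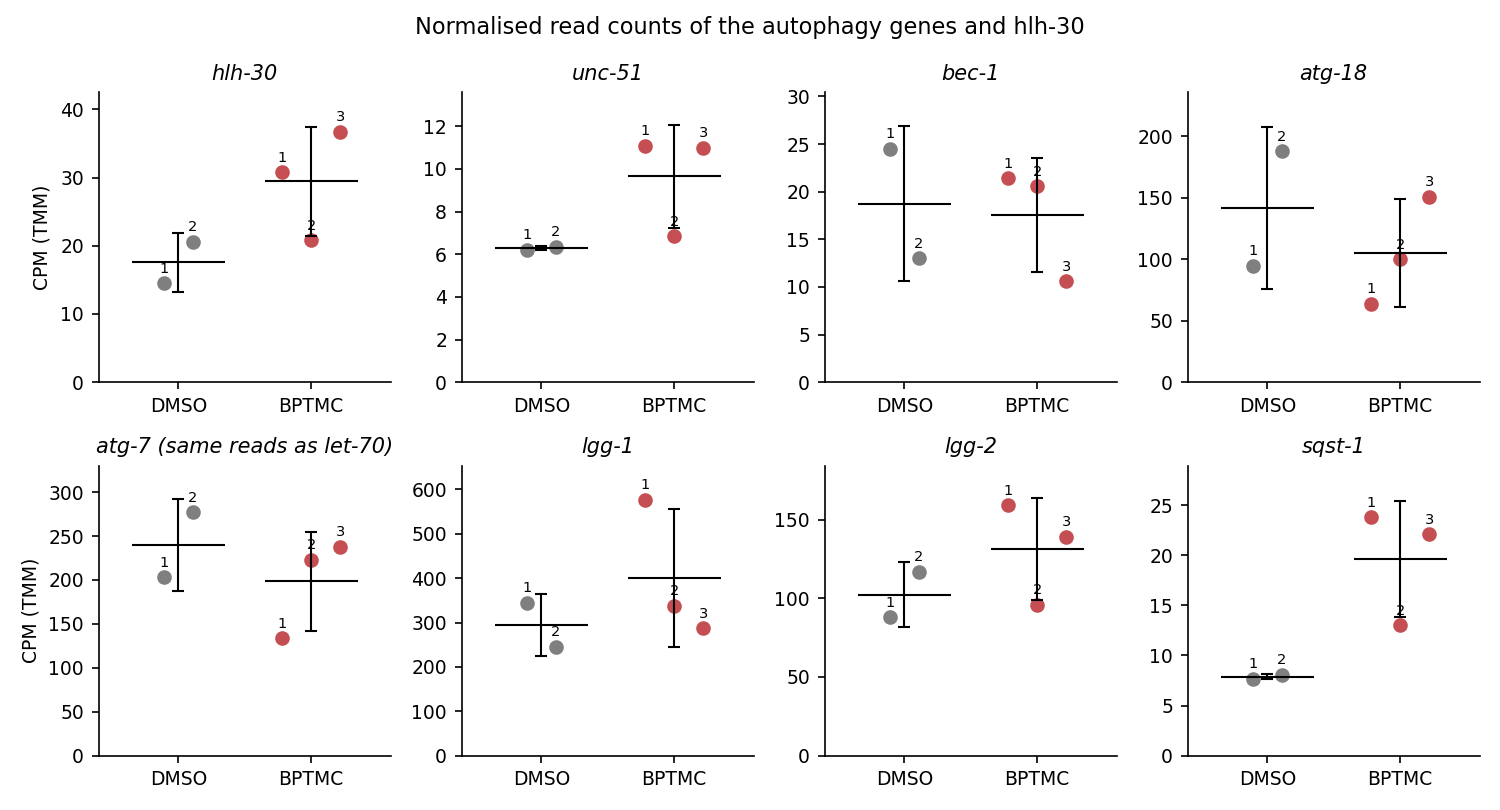
Normalised read counts (CPM after TMM scaling, linear axes from 0) of the 8 genes in each library; points carry the replicate number, horizontal lines are group means and bars are SD (DMSO n = 2, BPTMC n = 3). In hlh-30, unc-51 and sqst-1 the lowest BPTMC library lies above the highest DMSO library, by 0.142, 0.495 and 4.93 CPM; the other genes overlap.

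hlh-30 (WBGene00020930, WBcel235 chromosome IV, 4014793 to 4034951, minus strand) is a protein-coding gene with 13 annotated transcripts that end at 7 positions. It stood at 14.5 and 20.6 CPM in DMSO replicates 1 and 2 and at 30.8, 20.8 and 36.7 CPM in BPTMC replicates 1, 2 and 3, or 17.5 ± 4.36 (SD, n = 2) and 29.4 ± 8.05 CPM (SD, n = 3). BPTMC replicates 1 and 3 were well above DMSO, while BPTMC replicate 2 lay only 0.142 CPM above the higher DMSO library. The log2 fold change was 0.75 ± 0.42 (SE), with a 95% interval of -0.22 to 1.72, which covers no change and a rise of up to 3.28-fold (edgeR adjusted p = 0.779). The annotated small RNA genes inside hlh-30, F35F11.4 and W02C12.4, had at most 8 reads in a library.

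unc-51 (WBGene00006786, chromosome V, 19995986 to 20004485, minus strand), the kinase that starts autophagy and the counterpart of yeast Atg1 and mammalian ULK1, was the member with the fewest reads. It held 139 and 135 reads in DMSO, or 6.22 and 6.35 CPM, and 228, 134 and 217 reads in BPTMC, or 11.1, 6.84 and 11 CPM. The DMSO libraries were close together, BPTMC replicates 1 and 3 were equally high and BPTMC replicate 2 lay beside DMSO. Counting error alone (exact 95% Poisson interval) came to 17.3% of the value in DMSO replicate 2. The log2 fold change was 0.62 ± 0.44, with an interval of -0.38 to 1.62 (edgeR adjusted p = 0.833).

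bec-1 (WBGene00000247, chromosome IV, 5661141 to 5664425, minus strand) encodes the Beclin homologue of the lipid kinase complex. It stood at 24.5 and 13 CPM in DMSO and at 21.4, 20.6 and 10.6 CPM in BPTMC, so the highest and the lowest library were DMSO replicate 1 and BPTMC replicate 3 and the groups overlapped. Its log2 fold change of -0.10 ± 0.48 had an interval of -1.19 to 1.00 (edgeR adjusted p = 0.938). The sign was not stable: leaving out DMSO replicate 1 gave 0.42, and leaving out BPTMC replicate 3 gave 0.26.

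atg-18 (WBGene00018294, chromosome V, 8629174 to 8631327, minus strand) encodes a WIPI family protein that binds phosphatidylinositol 3-phosphate. It stood at 94.9 and 188 CPM in DMSO and at 63.9, 100 and 151 CPM in BPTMC. The groups overlapped, with BPTMC replicate 1 lowest and DMSO replicate 2 highest, and the order of the 5 libraries was that of the summed germline and oocyte markers (287 CPM in BPTMC replicate 1, 829 in DMSO replicate 1, 1320 in BPTMC replicate 2, 1500 in BPTMC replicate 3 and 2010 in DMSO replicate 2). This order was not particular to atg-18: the row of atg-7 and other genes named below, such as atg-3, epg-5, vps-15 and flcn-1, had it too. The part of the germline in this order was not tested. The log2 fold change was -0.43 ± 0.47, with an interval of -1.52 to 0.65 (edgeR adjusted p = 0.834), and it was 0.14 without DMSO replicate 2.

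The row of atg-7 (WBGene00010882, chromosome IV, 11078682 to 11081055, minus strand), which encodes the E1-like activating enzyme of LGG-1 and LGG-2, could not be read as that gene alone. Its 4533 and 5896 reads in DMSO and 2751, 4377 and 4682 reads in BPTMC were the same numbers, in all 5 libraries, as those of its neighbour let-70 (WBGene00002344, chromosome IV, 11081086 to 11082253, minus strand). let-70 encodes a ubiquitin-conjugating enzyme, and the annotation leaves 30 bases between these genes, with let-70 lying upstream of atg-7 on the same strand. Among genes with a mean of at least 20 reads, 66 pairs within 10 rows of each other had identical counts in every library, 64 of them on the same strand and 27 without annotated overlap. The shared row stood at 203 and 277 CPM in DMSO and at 134, 223 and 238 CPM in BPTMC, with a log2 fold change of -0.27 ± 0.39 and an interval of -1.16 to 0.62 (edgeR adjusted p = 0.840; 0.03 on the log2 scale without BPTMC replicate 1). How many of these reads came from atg-7 was not measured.

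LGG-1 and LGG-2 are the worm members of the Atg8 family, nearest to mammalian GABARAP and LC3, and they coat the autophagosome. lgg-1 (WBGene00002980, chromosome II, 6346960 to 6347719, minus strand) stood at 345 and 246 CPM in DMSO and at 577, 338 and 287 CPM in BPTMC (295 ± 70.0 and 401 ± 155 CPM, SD). BPTMC replicate 1 was apart and high, and the other BPTMC libraries lay within the range of DMSO. The log2 fold change of 0.44 ± 0.42 had an interval of -0.52 to 1.40 (edgeR adjusted p = 0.834), and it turned to -0.15 without BPTMC replicate 1 and DMSO replicate 2, the libraries at the ends of the first principal component.

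lgg-2 (WBGene00002981, chromosome IV, 10934196 to 10935903, minus strand) stood at 87.8 and 117 CPM in DMSO and at 159, 96.0 and 139 CPM in BPTMC. BPTMC replicates 1 and 3 were above both DMSO libraries and BPTMC replicate 2 between them. The log2 fold change was 0.36 ± 0.38, with an interval of -0.52 to 1.23 (edgeR adjusted p = 0.834). The 3′ end of lgg-2 faces that of lsm-7 across 6 bases, and the strand setting of the counting is not given in the sources used here. lsm-7 was higher in DMSO replicate 1 (265 CPM) than in the other libraries (96.7 to 210 CPM), an order unlike that of lgg-2.

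sqst-1 (WBGene00011737, chromosome IV, 12034282 to 12036891, plus strand), the counterpart of the mammalian cargo receptor p62, showed the largest difference of the 8. It held 172 reads in each DMSO library and 486, 255 and 434 reads in BPTMC replicates 1, 2 and 3, which is 7.70 and 8.08 CPM against 23.8, 13 and 22.1 CPM. Group means were 7.89 ± 0.27 (SD, n = 2) and 19.6 ± 5.78 CPM (SD, n = 3). Every BPTMC library was above DMSO, replicates 1 and 3 by more than replicate 2. The log2 fold change was 1.31 ± 0.44, a 2.48-fold difference, with a single-gene 95% interval of 0.30 to 2.32. The unadjusted edgeR p was 0.0169, and the adjusted p of 0.558 over 14238 genes did not pass. The difference was 1.23 to 1.59 on the log2 scale with any 1 library left out. Without BPTMC replicates 1, 2 and 3 the edgeR adjusted p was 0.780, 0.275 and 0.810. The log2 fold change was 1.26 when DMSO replicate 1 was left out and 1.38 when DMSO replicate 2 was. With a lone DMSO library the spread within DMSO cannot be measured, so these fits give a size of difference only.

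**Figure D2:**
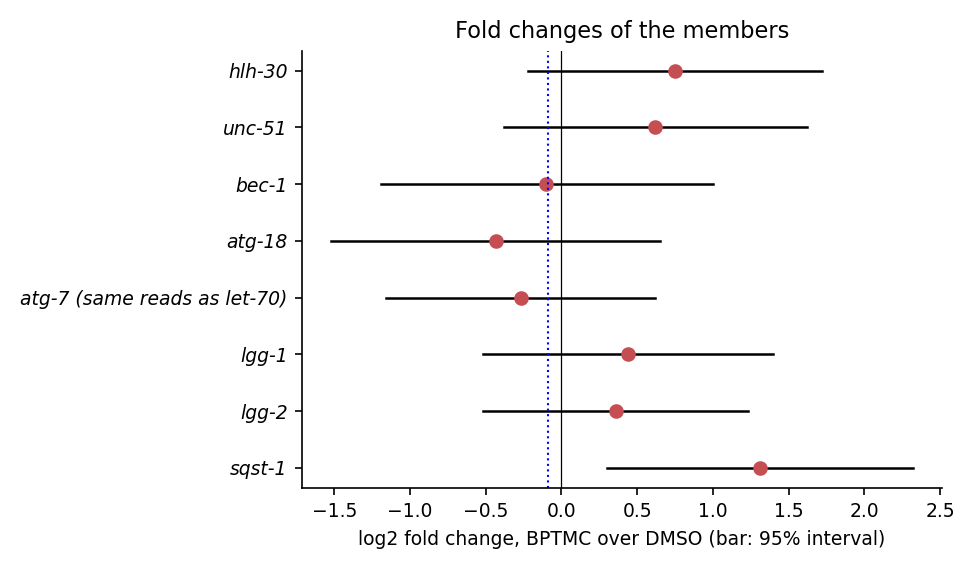
Log2 fold change of BPTMC (n = 3) over DMSO (n = 2) for each gene, with its approximate 95% interval from the edgeR fit; the solid line is no change and the dotted line the median of all tested genes (-0.09). The interval of sqst-1, 0.30 to 2.32, lies above 0 before adjustment over all genes, and the other 7 intervals include 0.

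The profiles of the members over the libraries differed. Relative to each gene's own mean on the log2 CPM scale, hlh-30, unc-51, lgg-2 and sqst-1 were positive in BPTMC replicates 1 and 3 and at or below 0.00 in the other libraries. Values in BPTMC replicate 1 and replicate 3 were 0.39 and 0.65 for hlh-30, 0.47 and 0.45 for unc-51, 0.45 and 0.25 for lgg-2, and 0.83 and 0.72 for sqst-1. These are also the libraries with most sperm transcripts (437 and 285 CPM over 28 of 28 major sperm protein genes), while BPTMC replicate 2 (54.4 CPM) lay within the range of DMSO (41.5 to 96.1 CPM); the part of this in the results was not tested. lgg-1 was high in BPTMC replicate 1 (0.75, against at most 0.01 elsewhere), as were the summed body wall muscle markers (937 CPM, against 274 to 395 CPM elsewhere), whose part was not tested. atg-18 (-0.80) and the shared atg-7 row (-0.64) were lowest in that library. bec-1 was lowest in BPTMC replicate 3 (-0.69).

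**Figure D3:**
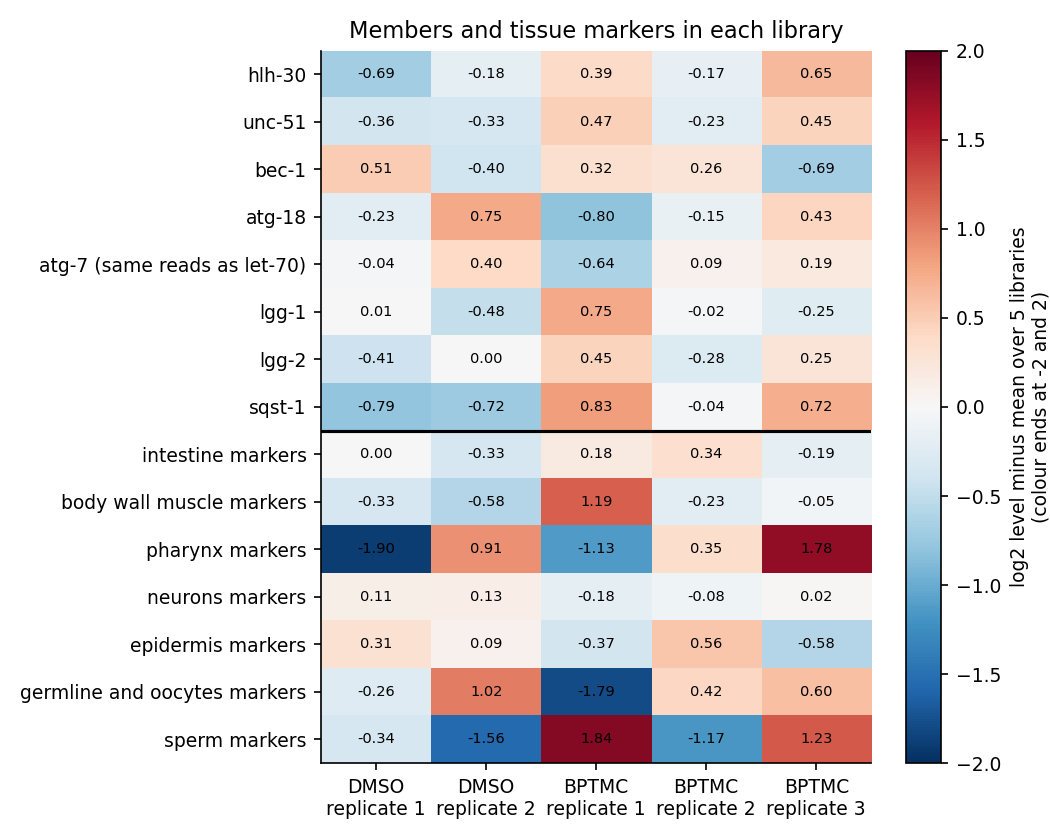
Level of each gene (rows above the line) and of each summed marker list (rows below) in the 5 libraries, as log2 CPM minus the row's mean; red is above and blue below the mean, and colour ends at -2 and 2. hlh-30, unc-51, lgg-2 and sqst-1 are above their mean in BPTMC replicates 1 and 3, as are sperm markers. atg-18, the shared atg-7 row and the germline and oocyte markers are lowest in BPTMC replicate 1.

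The genes whose profile over the 5 libraries lay nearest to that of hlh-30, among 6998 others with a mean of at least 10 CPM, were vab-8, fos-1, frm-7, atat-2 and ajm-1. The Euclidean distance between centred log2 CPM values was 0.204 for vab-8, a kinesin-like protein of cell migration, 0.217 for fos-1, a Fos family transcription factor, 0.224 for frm-7, 0.249 for atat-2 and 0.251 for ajm-1, a protein of epithelial junctions. ajm-1 stood at 27.9 and 31.6 CPM in DMSO and at 50.6, 36.1 and 59.4 CPM in BPTMC. Of the autophagy members with that mean level, lgg-2 ranked 60th at a distance of 0.533, sqst-1 165th at 0.712 and lgg-1 1033rd at 1.24. The shared atg-7 row (1.453), atg-18 (1.603) and bec-1 (1.866) were farther from hlh-30.

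Beyond the 8 members, 96 other genes of autophagy, its control and the lysosome were followed in 8 lists, chosen with earlier results of these data known. Of these, 94 were tested and 0 were called in either direction by edgeR over all genes. Where p was left unadjusted (under 0.05), 5 were higher and 1 lower, beside 7.0% of all tested genes higher and 0.400% lower. By DESeq2 2 were called higher (lipl-1 and lipl-5), beside 1.67% of all tested genes, and 0 lower; limma-voom called 0. The cargo receptor genes sqst-3 and sqst-4, which had 0 to 1 reads per library, were not tested. Over the 94 genes, 40 fold changes were positive and 54 negative, with a median log2 fold change of -0.12 beside -0.09 over all genes tested.

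Of 4 other initiation genes tested, 0 were called by edgeR (0 at an unadjusted p under 0.05), and 3 fold changes were positive. epg-9, the counterpart of ATG101, had the largest at 1.00 ± 0.58 on the log2 scale, carried by BPTMC replicate 1 (94.7 CPM) and replicate 3 (49.6 CPM) against 23.0 CPM in replicate 2 and 32.4 and 23.4 CPM in DMSO; it was 0.44 without BPTMC replicate 1. The scaffold genes atg-13 and epg-7 and the membrane protein gene atg-9 had log2 fold changes of 0.30 ± 0.37, 0.29 ± 0.46 and -0.12 ± 0.44. Of 7 genes of the lipid kinase complex and its effectors, 0 were called and 0 had an unadjusted edgeR p under 0.05, with a median of -0.19 that turned to 0.12 without DMSO replicate 2 and to 0.01 without BPTMC replicate 1. atg-2, a lipid transfer protein that works with ATG-18, stood at 10.3 and 14.3 CPM in DMSO and at 33.7, 10.3 and 37.8 CPM in BPTMC, a log2 fold change of 1.15 ± 0.58 (edgeR adjusted p = 0.732). Here too BPTMC replicates 1 and 3 were high and replicate 2 lay within DMSO. vps-15, epg-8 and epg-6 had values of -0.49 ± 0.52, -0.30 ± 0.35 and -0.30 ± 0.35.

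Of 8 other conjugation genes, 0 were called and 0 had an unadjusted edgeR p under 0.05; their fold changes were the narrowest of the 8 lists, from -0.34 to 0.28 on the log2 scale with a median of -0.06. The examples were atg-5 (-0.34 ± 0.37), atg-4.1 (-0.31 ± 0.41), atg-3 (-0.28 ± 0.45) and atg-16.2 (0.28 ± 0.40). Of 6 other receptor and adaptor genes tested, 0 were called and 0 had an unadjusted edgeR p under 0.05, with a median of 0.34. Without DMSO replicate 1 the median was 0.11, beside 0.1 over all tested genes. sqst-2, a relative of sqst-1, stood at 10.6 and 5.17 CPM in DMSO and at 15.6, 11.1 and 7.37 CPM in BPTMC, so unlike sqst-1 its groups overlapped (log2 fold change 0.53 ± 0.51); a difference between the genes was not tested. dct-1, a mitophagy receptor, had 24.5 CPM in BPTMC replicate 1 against 4.49 to 13.4 CPM in the other libraries (1.17 ± 0.67, or 0.57 without BPTMC replicate 1), and epg-2 and epg-5 had 0.64 ± 0.46 and -0.26 ± 0.45. epg-2 overlaps tpxl-1 over 2728 bases and epg-5 overlaps vps-33.2 over 2244 bases in antisense direction, and reads of these pairs may be mixed.

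Of 15 genes of TOR, AMPK and other control of HLH-30 and autophagy, 0 were called, an unadjusted edgeR p under 0.05 was reached by 1 gene, which was higher, and the median was -0.16. That sign rested on single libraries, and the median over all tested genes turned as well. The list median was 0.19 (11 of 15 positive) without DMSO replicate 2, beside 0.12 over all genes. It was 0.12 (9 of 15) without BPTMC replicate 1, beside 0.02 over all genes. With all 5 libraries the median over all genes was -0.09. The gene with that p was pha-4, a FoxA factor needed for longevity by diet restriction in worms, which stood at 1.30 and 1.46 CPM in DMSO and at 5.08, 1.89 and 5.29 CPM in BPTMC (log2 fold change 1.57 ± 0.61, edgeR adjusted p = 0.622). mml-1, a Mondo family factor, had 0.53 ± 0.43, the folliculin gene flcn-1 -0.44 ± 0.48 and the Rag GTPase gene raga-1 -0.36 ± 0.38.

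**Figure D4:**
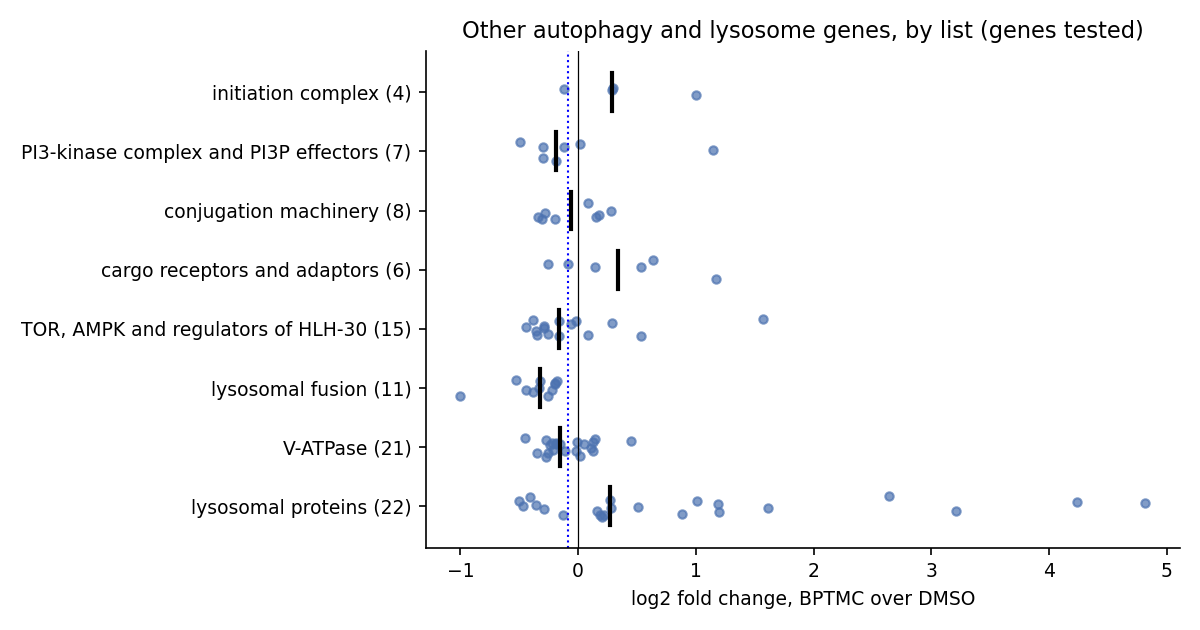
Log2 fold change of BPTMC (n = 3) over DMSO (n = 2) for the 94 tested genes of 8 lists, with 1 point a gene (vertical place within a row has no meaning), the list median as a black bar, no change as a solid line and the median of all tested genes (-0.09) as a dotted line. The 11 genes of lysosomal fusion are all below 0, with a median of -0.32, and lysosomal proteins reach from -0.50 to 4.82.

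All 11 genes of lysosomal fusion had negative fold changes (median -0.32), as did 7761 of all 14238 tested genes (median -0.09). Of the 11, 0 were called. At an unadjusted edgeR p under 0.05, 1 was lower and 0 higher, beside 0.400% and 7.0% of all tested genes. The 1 was vps-16, a subunit of the tethering complexes of lysosomes, at 41 and 28.5 CPM in DMSO and at 14.9, 22.8 and 14.4 CPM in BPTMC. This gave a log2 fold change of -1.0 ± 0.40 (edgeR adjusted p = 0.639), and every BPTMC library was below DMSO. vps-11 and vps-33.1, other subunits, had -0.53 ± 0.56 and -0.44 ± 0.37, and the lysosomal channel gene cup-5 -0.38 ± 0.40. Of the 11 genes, 6 had their lowest value in BPTMC replicate 1 and 6 their highest in DMSO replicate 2, the ends of the first principal component. Over the 94 tested genes of all 8 lists, 30 were lowest in BPTMC replicate 1 and 33 highest in DMSO replicate 2. Negative fold changes were 11 of 11 under RLE and total count scaling as well. They were 7 of 11 (median -0.18) without DMSO replicate 2, 8 of 11 (-0.11) without BPTMC replicate 1 and 6 of 11 (-0.08) without both of these libraries. The median over all tested genes in these fits was 0.12, 0.02 and 0.08.

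Of 21 genes of the V-ATPase, the proton pump that acidifies the lysosome, 0 were called and 0 had an unadjusted edgeR p under 0.05. Fold changes ran from -0.45 to 0.45 on the log2 scale with a median of -0.15. With 1 library left out this median ran from -0.18 (without BPTMC replicate 2) to 0.05 (without BPTMC replicate 3, with 12 of 21 positive). The median over all tested genes in these fits was -0.07 and 0.04. vha-6, an intestinal subunit, stood at 72.7 and 61.1 CPM in DMSO and at 109, 81 and 84.1 CPM in BPTMC (0.45 ± 0.36), while vha-12, vha-13 and vha-19 had -0.45 ± 0.40, -0.35 ± 0.41 and -0.27 ± 0.34. The interval of vha-6 ran from -0.37 to 1.27, and every BPTMC library was above DMSO.

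Among 22 lysosomal proteins, 0 were called by edgeR. An unadjusted edgeR p under 0.05 was reached by 4, all higher, beside 7.0% of all tested genes higher and 0.400% lower. The list was chosen with earlier results of these data known, so this is a description and not independent evidence. Of the 22, 14 had their highest value in BPTMC replicate 1 and 6 in DMSO replicate 2. Fold changes were positive in 6477 of all 14238 tested genes and in 16 of the 22 lysosomal proteins, whose median was 0.27. With 1 library left out this median ran from 0.04 (without BPTMC replicate 1, beside 0.02 over all genes) to 0.74 (without BPTMC replicate 2, beside -0.07). It was 0.68 when DMSO replicate 1 and 0.64 when BPTMC replicate 3 was left out, beside 0.1 and 0.04 over all genes. The 4 were lipl-5, lipl-1, lipl-2 and ppt-1. lipl-5, a lysosomal acid lipase, held 768 and 1314 reads in DMSO and 10051, 2463 and 5564 in BPTMC, or 34.4 and 61.8 CPM against 491, 126 and 283 CPM. Every BPTMC library was above DMSO, and the log2 fold change was 2.64 ± 0.63, with an edgeR adjusted p = 0.302 and a DESeq2 adjusted p = 0.00298. Over all alternatives without the replicate block its value lay between 2.20 and 3.18.

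Like lipl-5, lipl-1 and lipl-2 encode lysosomal lipases, a family that HLH-30 and its opponent MXL-3 are known to control in fasting worms. lipl-1 had 16 and 2 reads in DMSO and 378, 3 and 323 in BPTMC, and lipl-2 had 13 and 0 against 233, 7 and 105. Both were high in BPTMC replicates 1 and 3 and within the range of DMSO in replicate 2. Their fitted log2 fold changes of 4.82 ± 1.61 and 4.24 ± 1.47 therefore rested on 2 of 3 libraries (edgeR adjusted p = 0.558 and 0.563; DESeq2 adjusted p = 0.00857 and 0.590). With 1 library left out they ran from 4.06 to 6.85 for lipl-1 and from 3.29 to 9.84 for lipl-2, both highest without DMSO replicate 1. Of the same family, lipl-3 had 16 and 0 reads in DMSO and 160, 5 and 42 in BPTMC (log2 fold change 3.21 ± 1.44). lipl-4 had 12 and 15 reads against 26, 0 and 17 (0.20 ± 1.06). The log2 fold change of mxl-3 was 0.08 ± 0.39. Control of these genes by HLH-30 or MXL-3 was not tested. ppt-1, a palmitoyl-protein thioesterase, stood at 0.582 and 0.470 CPM in DMSO and at 1.71, 1.89 and 1.27 CPM in BPTMC (1.61 ± 0.63, edgeR adjusted p = 0.622). ppt-1 overlaps nhr-37 on the opposite strand, and atg-13, vps-15, epg-8, atg-4.1, dct-1, flcn-1, vps-33.1, cup-5 and vha-19 also overlap a protein-coding gene on the other strand and vha-13 one on its own, so their counts may hold reads of 2 genes.

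**Figure D5:**
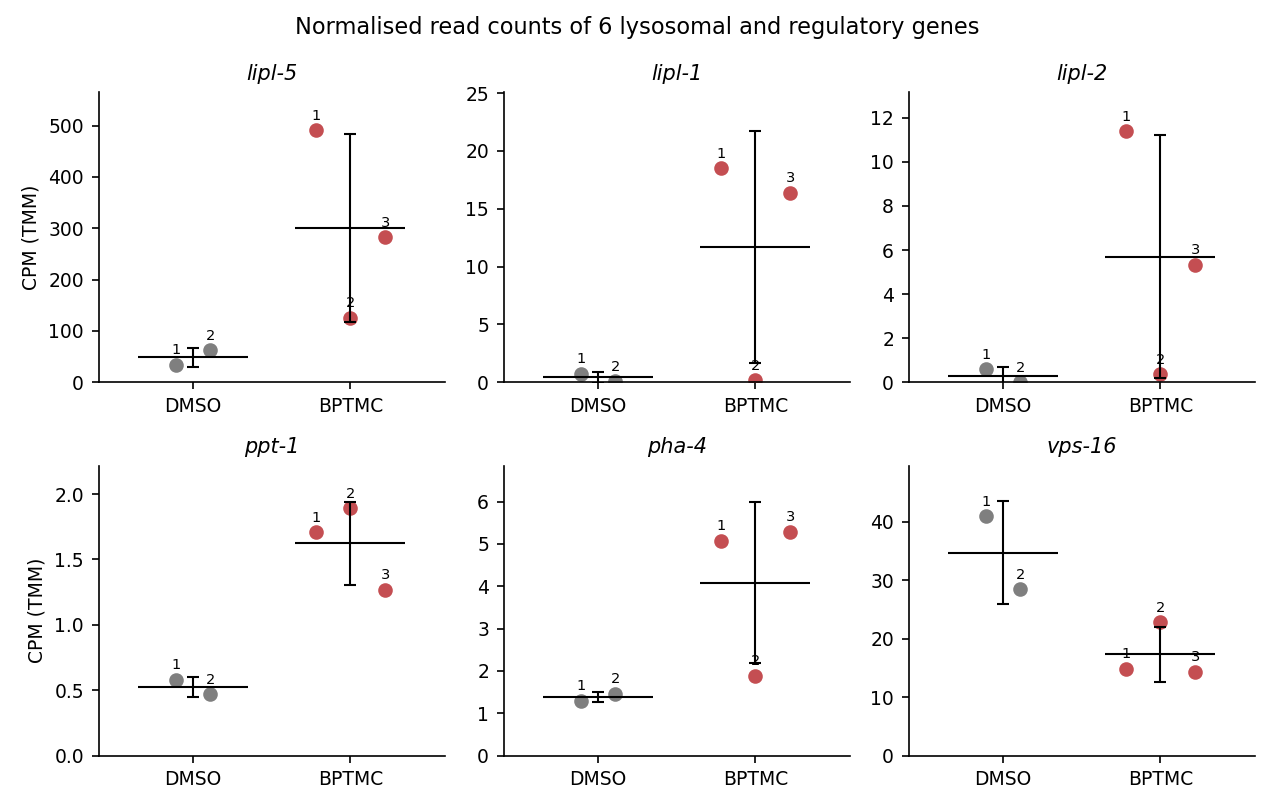
Normalised read counts (CPM after TMM scaling, linear axes from 0) of the 6 listed genes with an unadjusted edgeR p under 0.05; points carry the replicate number, lines are group means and bars are SD (DMSO n = 2, BPTMC n = 3). lipl-5, ppt-1 and pha-4 are above DMSO and vps-16 below DMSO in every BPTMC library, while lipl-1 and lipl-2 in BPTMC replicate 2 lie with DMSO.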

How the data were processed

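The authors deposited raw counts of reads per gene, in 1 table for each sample. The submitters' processing notes name Bowtie2, bedtools and WBcel235; for versions, annotation and strand setting, nothing is given in the sources used here. The 3 BPTMC and 2 DMSO libraries were compared by edgeR 4.0.16 quasi-likelihood tests in R 4.3.3, with TMM scaling and filterByExpr at a minimum count of 10. Benjamini-Hochberg adjustment was over 14238 genes. The fit was tested on simulated data, with changes larger than those fitted for the members. Whether it could call changes of the members' size was not tested. Errors of log2 fold changes are approximate SE (the absolute value divided by the root of F), and intervals use the fit's degrees of freedom. CPM is normalised by TMM, and levels of different genes were not compared. Profiles are log2 CPM after adding a prior count of 2. Coordinates come from Ensembl 115 (WBcel235). The members and the 8 lists were chosen with earlier results of these data known. Named were all members, up to 4 genes per list with the smallest p, and the 5 genes nearest to hlh-30. Values of lipl-3, lipl-4 and mxl-3 are given beside those of the other lipase genes, without being counted among the named genes. Alternatives used DESeq2 1.42.0 and limma 3.58.1, other scalings and filters, each library left out and the replicate number as a block. Poisson intervals cover counting error only.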

Additional observations from a re-analysis of the deposited data

How the results depend on the processing

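The 40 named genes followed here were the members and those of the lists, without the 5 genes nearest to hlh-30. Of these 40, 23 kept the sign of their fold change in each alternative that tested them (16, or 15 for pha-4 and ppt-1, left out by the filter at 5 CPM). Among the 23 were hlh-30 (0.50 to 1.04 on the log2 scale), unc-51 (0.48 to 0.86), lgg-2 (0.15 to 0.61) and sqst-1 (1.16 to 1.59). The causes of the changes below were not tested. The count of all genes called higher, 15, was 2 with total count scaling, 65 with no filter, 3 with at least 5 CPM in 2 or more libraries, 238 by DESeq2, 1 by limma-voom, 3 with legacy dispersions, 4 without rRNA genes and 0 to 43 with 1 library left out (none were called when BPTMC replicate 3 was left out, 6 when DMSO replicate 2 was, 33 when DMSO replicate 1 was and 43 when BPTMC replicate 1 was). Genes called lower, 0 at first, were 2 with no filter and 3 by DESeq2. Among lysosomal proteins DESeq2 called 2 higher (lipl-1 at 4.80 and lipl-5 at 2.57).

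BPTMC and DMSO share replicate numbers 1 and 2, which nothing says pair cultures; deviations from group means correlated at 0.666 and 0.325 across genes for these pairs. With 2 DMSO libraries the deviations mirror each other, and DMSO replicate 2 correlated more with BPTMC replicate 3 (0.467) than with BPTMC replicate 2, so these values do not show pairing. With the replicate block, to which BPTMC replicate 3 adds nothing, edgeR called 1147 of 14238 tested genes higher and 599 lower. Of the 8 members, 1 was called higher (sqst-1, log2 fold change 1.16, edgeR adjusted p = 0.0319) and 0 lower. Of the 94 listed genes tested, 6 were called higher, all of them lysosomal proteins. The 2 called lower were 1 lysosomal protein and 1 gene of TOR, AMPK and HLH-30 control. lipl-1, lipl-2 and lipl-5 then had 4.25, 4.34 and 2.43, and bec-1 turned to 0.23.

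An alternative chosen after seeing the data left out BPTMC replicate 1 and DMSO replicate 2, with the lone DMSO library assumed to vary like BPTMC; it called 5 genes higher. It turned atg-18 to 0.40, the atg-7 row to 0.18, lgg-1 to -0.15, atg-9 to 0.41, vps-15 to 0.41, epg-6 to 0.00, atg-3 to 0.33, atg-16.2 to -0.01, sqst-2 to -0.20, epg-5 to 0.45, raga-1 to 0.03, flcn-1 to 0.30, cup-5 to 0.18, vha-12 to 0.01 and vha-13 to 0.26, and it gave -0.66 for bec-1, 0.98 for epg-7, 0.16 for epg-9 and 0.27 for dct-1. With at least 5 CPM required, bec-1 was 0.02 and atg-9 0.00. With 1 library left out, ranges were -0.44 to 0.42 for bec-1, -0.85 to 0.14 for atg-18, -0.49 to 0.03 for the atg-7 row, 0.14 to 0.75 for lgg-1, -0.14 to 0.88 for epg-7, -0.41 to 0.22 for atg-9, -0.92 to 0.12 for vps-15, -0.60 to 0.11 for atg-3, -0.63 to 0.22 for epg-5, -0.79 to 0.01 for flcn-1, -0.70 to 0.03 for cup-5, -0.68 to 0.05 for vha-13, -0.50 to -0.06 for epg-6, 0.12 to 0.54 for atg-16.2, 0.15 to 1.12 for sqst-2, -0.55 to -0.08 for raga-1 and -0.68 to -0.16 for vha-12.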
